A study of Mus musculus with 12 samples.

Results

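Carboxylesterases of the Ces1, Ces2 and Ces3 subfamilies were followed through knockdown of Hnf4a, Cebpa or both in primary mouse hepatocytes. The set was chosen by gene name and holds 10 genes, namely Ces1b, Ces1c, Ces1d, Ces1e, Ces1f, Ces1g, Ces2a, Ces2e, Ces3a and Ces3b, of 55385 genes in the files and of 20 genes with a Ces symbol. The hepatocytes were freshly isolated from 3 mice and kept in Williams' E medium that held 10% fetal bovine serum, 100 nM dexamethasone, 2 mM glutamine and 5% of an insulin, transferrin and selenium supplement. They were exposed for 48 h to control siRNA (siCon), to siRNA targeting Hnf4a (siHnf4a) or Cebpa (siCebpa), or to both of these (the double knockdown), and each mouse gave 1 library to each of the 4 groups. Hnf4a is a nuclear receptor, Cebpa is a leucine zipper factor, and each helps to maintain the gene programme of hepatocytes. The sources used here do not give the strain, sex or age of the mice or the siRNA sequences.

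Carboxylesterases are serine hydrolases, most of which reside in the lumen of the endoplasmic reticulum, where they cleave esters, thioesters and amides. In the liver they activate or inactivate ester drugs and also act on acylglycerols and cholesteryl esters, so that several mouse members are known as much for lipid mobilisation as for drug metabolism. Rodents have many more of these genes than humans, as tandem copies in neighbouring clusters.

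All 10 genes lie on chromosome 8 (GRCm38 coordinates of the GENCODE M21 annotation) and are annotated as protein coding. The 6 Ces1 members are on the minus strand: Ces1b (chr8:93056728-93080017), Ces1c (chr8:93099015-93131283), Ces1d (chr8:93166068-93197838), Ces1e (chr8:93201218-93229619), Ces1f (chr8:93256236-93279747) and Ces1g (chr8:93302369-93337308). A second cluster on the plus strand holds Ces2a (chr8:104734003-104741634), Ces2e (chr8:104926260-104934672), Ces3a (chr8:105048601-105058413) and Ces3b (chr8:105083753-105093929). The longest coding sequences run from 1665 bases in Ces1c to 1716 bases in Ces3a and Ces3b. Ces3a and Ces3b are 95.3% identical over aligned coding bases, Ces1b and Ces1c 91.2%, Ces2a and Ces2e 83.3%, and Ces1d and Ces1g 81.6%. This likeness bears on the counting of reads. Of the 31-base words in the transcripts of Ces3a and Ces3b, only 65.1% and 64.3% occur in no other gene. The share was 76.1% in Ces1b and 76.7% in Ces1c, which share words with each other, and 69.8% in Ces2a, whose words recur in the gene Gm7208. It was 91.3% or more in Ces1d, Ces1e, Ces1f, Ces1g and Ces2e, so the values of those 5 genes are the least exposed to division of reads between copies.

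Libraries held 22453445 to 25008195 estimated counts, and 15090 genes entered the test, all 10 carboxylesterases among them. Both targets were reduced. Hnf4a averaged 229.6 ± 78.0 CPM (counts scaled to the library total; mean ± SD, n = 3) in controls, 54.1 ± 6.80 under siHnf4a and 35.9 ± 3.67 with both siRNAs, and Cebpa 193 ± 16.2 in siCon, 30.0 ± 3.81 under siCebpa and 94.2 ± 13.1 with both. Cebpa was thus higher with both siRNAs than with its own alone, by 1.65 ± 0.13 log2 units (± SE; edgeR quasi-likelihood test, adjusted p = 5.11e-05 by the Benjamini-Hochberg method). All 10 hepatocyte markers listed were detected and summed to 6878 to 13351 TPM (transcripts scaled to their length and to the library total), with Cyp2e1 low at 0.311 to 2.59 TPM. The 8 stellate and fibroblast markers summed to 70.5 to 77.6 TPM in controls, 45.0 to 59.1 under siHnf4a, 41.3 to 66.4 under siCebpa and 40.5 to 64.9 with both siRNAs. The 6 cholangiocyte markers summed to 66.5 to 282 TPM in controls, 41.8 to 180 under siHnf4a, 24.7 to 108 under siCebpa and 27.2 to 172 with both, with Cftr at or near 0. The 7 endothelial markers summed to 19.9 to 39.6 TPM over all libraries and 5 adipocyte and lung markers to 4.60 to 9.40 TPM, with Adipoq at or near 0. The part of these other cells in the results was not tested, and in such bulk RNA fewer cells of a type and less RNA per cell cannot be told apart.

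Among the 10 members, 1 gene dominated in control cells. Ces2e, an enzyme of the endoplasmic reticulum that prefers esters with a small acyl group, stood at 73.6, 90.0 and 97.3 TPM in mice 1, 2 and 3 (87.0 ± 12.1, mean ± SD, n = 3). Since TPM values correct for transcript length, they can be set beside each other between genes. Ces1c, the secreted carboxylesterase of mouse plasma, followed at 32.6, 16.4 and 13.6 TPM (20.9 ± 10.3). Ces2e was above every other member in each mouse, and its mean differed from that of Ces1c by more than the larger SD.

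Below these came a group whose order could not be fixed: Ces1d at 6.53 ± 0.182 TPM, Ces2a at 5.57 ± 1.79, Ces1g at 5.39 ± 0.928 and Ces3a at 5.23 ± 5.05. Ces1d is the triacylglycerol hydrolase that mobilises stored fat for lipoprotein assembly, and Ces1g, also called esterase-x, is another lipid-handling enzyme of the liver. Neighbours among these 4, and Ces3a and Ces1b (3.07 ± 1.92), differed by less than the larger SD. The lowest were Ces3b at 1.08 ± 0.767 TPM, Ces1f at 0.881 ± 0.319 and Ces1e at 0.520 ± 0.144. Ces1e, known as egasyn for anchoring beta-glucuronidase in the endoplasmic reticulum, had only 11 to 20 estimated counts per siCon library.

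**Figure D1:**
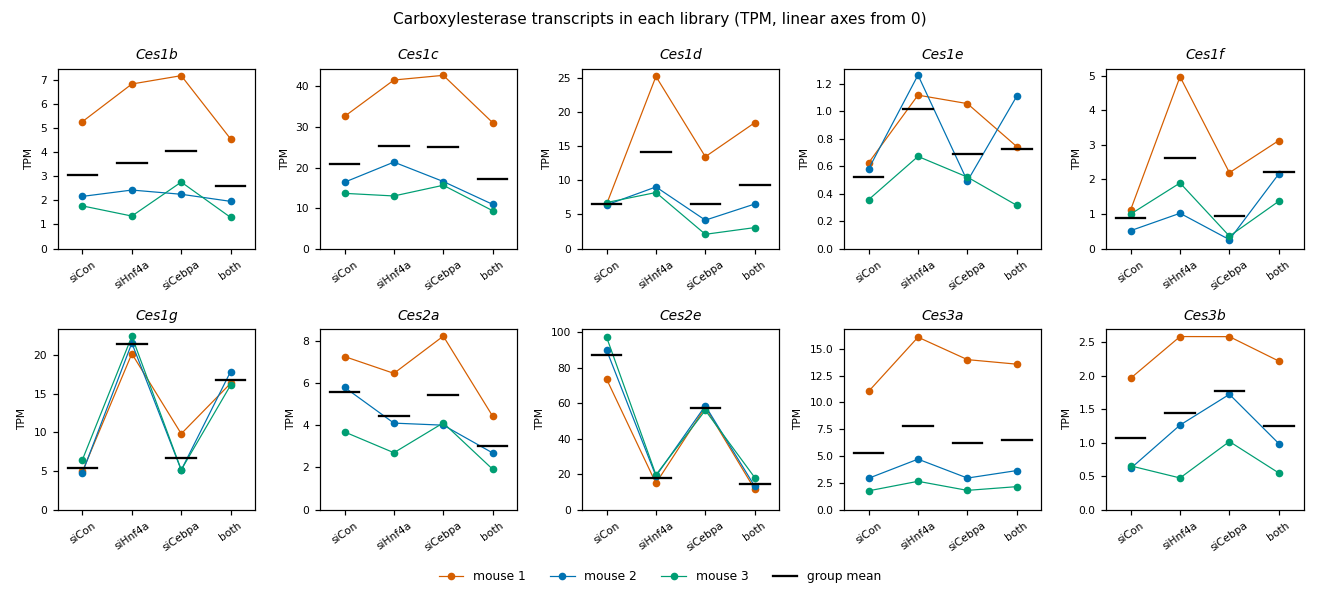
Each panel plots 1 gene, with TPM on the vertical axis (linear, from 0) and the 4 groups on the horizontal axis; points joined by a line are the libraries of 1 mouse and black bars are group means (n = 3). Ces2e is between 73.6 and 97.3 TPM in siCon and between 14.8 and 19.6 in siHnf4a, Ces1g moves the other way, and mouse 1 is highest in every group for Ces1b, Ces1c, Ces2a, Ces3a and Ces3b.

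Knockdown of Hnf4a changed the order of the family. Ces2e, the most abundant member, fell 4.78-fold, and Ces1g rose 4.01-fold. Ces1g, at 21.4 ± 1.14 TPM, was then above Ces2e, at 17.7 ± 2.56. Ces1c, at 25.3 ± 14.7, had the highest mean of the 10, but differed from Ces1g by less than the larger SD. It was above Ces1g only in mouse 1, at 41.6 against 20.2 TPM. These were the 2 members called, 1 lower and 1 higher, or 20% of the set, where 14.5% of all tested genes were called, 7.29% lower and 7.24% higher. The other 8 had wide intervals around smaller changes.

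Ces2e measured 73.6, 90.0 and 97.3 TPM in siCon and 14.8, 18.8 and 19.6 TPM in siHnf4a in mice 1, 2 and 3. The groups did not overlap, and the 3 mice gave nearly the same difference, at -2.25, -2.22 and -2.28 log2 units of CPM. The fitted log2 fold change of the counts was -2.26 ± 0.17 (95% interval -2.63 to -1.88; edgeR quasi-likelihood test, adjusted p = 3.77e-05). Over 21 other settings it ran from -2.35 to -2.16, with adjusted p from 6.48e-34 to 0.0314, and it passed the threshold in all of them.

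Ces2a is the member whose coding sequence is closest to Ces2e within the set, and its promoter is also the closest among the 7 members with a promoter in the RefSeq table. The windows from 250 bases before to 50 bases after the annotated start (RefSeq, GRCm38.p6, plus strand) are printed because these related promoters accompany different values under siHnf4a. They align over 265 bases with 69.4% identity; Ces2e is at chr8:104926010-104926309 and Ces2a at chr8:104733753-104734052. Capitals mark matches to TTNNGNAA, a C/EBP-type core, and to CAAAGTTC, which reads GAACTTTG on the printed strand and is shared by the 2 promoters.
Ces2e: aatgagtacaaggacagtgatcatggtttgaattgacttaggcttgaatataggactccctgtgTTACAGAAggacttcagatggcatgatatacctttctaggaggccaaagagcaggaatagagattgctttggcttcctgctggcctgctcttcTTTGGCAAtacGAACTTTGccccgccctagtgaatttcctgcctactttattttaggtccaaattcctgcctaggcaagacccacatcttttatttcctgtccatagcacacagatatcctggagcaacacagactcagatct
Ces2a: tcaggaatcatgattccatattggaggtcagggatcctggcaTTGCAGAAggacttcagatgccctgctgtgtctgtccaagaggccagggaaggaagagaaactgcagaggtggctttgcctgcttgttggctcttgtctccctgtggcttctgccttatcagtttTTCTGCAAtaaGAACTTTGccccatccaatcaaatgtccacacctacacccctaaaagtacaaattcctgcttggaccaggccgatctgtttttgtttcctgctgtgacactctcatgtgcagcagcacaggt

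Both promoters carry TTNNGNAA at 2 places, and both carry GAACTTTG, at -82 to -75 in Ces2e and at -72 to -65 in Ces2a, counted from the start. CAAAGTTC was picked after the promoters had been read, has the letters of the HNF4-type motif CAAAGTNCA without its last base, and occurs in 1.044% of 32851 promoters of the same length, on either strand. Of the 15 Ces genes with a promoter in the RefSeq table, these 2 held it. The full CAAAGTNCA was in 0 of the 7 members with a promoter there and in 1.412% of all promoters. TTNNGNAA was in 7 of 7 members and in 40.684% of all promoters. Such matches describe letters in this window and say nothing of binding.

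Ces2a itself was at 7.24, 5.79 and 3.67 TPM in siCon and at 6.45, 4.09 and 2.69 TPM in siHnf4a. It was lower in each mouse, yet the groups overlapped almost wholly, and the log2 fold change was -0.28 ± 0.48 (interval -1.33 to 0.77; edgeR, adjusted p = 0.748). With mouse as a block the interval narrowed to -0.65 to 0.00 around -0.32 (edgeR, adjusted p = 0.125). The response of Ces2a and that of Ces2e were each tested against siCon, and the difference between the genes was not tested.

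Ces1g went from 4.94, 4.78 and 6.46 TPM in siCon to 20.2, 21.5 and 22.4 TPM in siHnf4a. All 3 siHnf4a libraries lay above all 3 controls, with no overlap. In log2 units of CPM the mice differed from their own controls by 2.05, 2.19 and 1.79. The fitted change was 2.01 ± 0.24 log2 units (interval 1.49 to 2.52; edgeR, adjusted p = 0.000394). Without mouse 2 the change was 1.92 and missed the threshold (edgeR, adjusted p = 0.072), and over the 20 other settings it passed. That fit without mouse 2 called only 41 of all genes lower and 34 higher, against 1100 and 1093 with all 3 mice.

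The promoter of Ces1g is set beside that of Ces1c, its abundant neighbour in the same cluster, for which no change was called. Both windows are on the minus strand and are printed in the direction of transcription (RefSeq, GRCm38.p6), Ces1g at chr8:93337160-93337459 and Ces1c at chr8:93131234-93131533. Capitals mark matches to TTNNGNAA.
Ces1g: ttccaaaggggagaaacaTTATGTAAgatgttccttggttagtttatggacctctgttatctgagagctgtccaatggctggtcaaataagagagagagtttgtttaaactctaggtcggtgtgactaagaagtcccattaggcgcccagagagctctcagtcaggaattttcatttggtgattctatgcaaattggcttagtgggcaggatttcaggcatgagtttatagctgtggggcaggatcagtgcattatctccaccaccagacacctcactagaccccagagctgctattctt
Ces1c: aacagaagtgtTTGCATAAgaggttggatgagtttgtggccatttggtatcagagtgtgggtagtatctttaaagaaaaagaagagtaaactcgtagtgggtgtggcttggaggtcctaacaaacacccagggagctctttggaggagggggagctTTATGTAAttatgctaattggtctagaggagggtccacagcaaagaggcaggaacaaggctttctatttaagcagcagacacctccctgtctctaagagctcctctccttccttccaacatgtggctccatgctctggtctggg

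One spelling of that core, TTATGTAA, stood in both, at -232 to -225 in Ces1g and at -94 to -87 in Ces1c. It was chosen after reading the promoters and is itself a match to TTNNGNAA. It was found in 4 of 7 members (Ces1b, Ces1c, Ces1e and Ces1g), in 5 of 6 Ces1 genes with a promoter in the table and in 0.938% of all promoters. Ces1b and Ces1c promoters align over 273 bases with 93.4% identity, so these copies are not independent. Of other motifs searched on both strands, TGACCT (a nuclear receptor half-site) was in 1 of 7 members, Ces2a, and in 16.255% of all promoters. TGACNNNGC (antioxidant response type) was in 0 and in 12.392%. GTTAATNNT (an HNF1 half-site) was in 1 of 7 members, Ces3b, and in 2.566% of all promoters.

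Ces1c gave 32.6, 16.4 and 13.6 TPM in siCon and 41.6, 21.3 and 13.0 in siHnf4a. It was higher in mice 1 and 2 and lower in mouse 3, the groups overlapped, and the log2 fold change was 0.33 ± 0.61 (interval -1.01 to 1.66; edgeR, adjusted p = 0.771). Ces1b and Ces1e were not called either, at 0.23 ± 0.71 and 0.54 ± 0.44 log2 units.

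A further 4 members, Ces1d, Ces1f, Ces3a and Ces3b, passed the threshold only when mouse was a block in the fit, which removes the differences between animals. Ces1d, the triacylglycerol hydrolase, was at 180, 65.0 and 93.0 estimated counts in siCon and at 558, 213 and 177 in siHnf4a. Each mouse was above its own control, by 1.62, 1.71 and 0.87 log2 units of CPM, and the groups were barely apart in CPM, at 2.62 to 7.14 against 7.28 to 22.2. In TPM the step was smaller in mice 2 and 3, from 6.48, 6.38 and 6.73 in siCon to 25.2, 9.01 and 8.19 in siHnf4a. The change was 1.48 ± 0.78 without the block and 1.40 ± 0.29 with it (edgeR, adjusted p = 0.245 and 0.00451).

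Ces1f, another triacylglycerol hydrolase of the microsomes, was at 1.12, 0.519 and 0.999 TPM in siCon and at 4.97, 1.02 and 1.90 TPM in siHnf4a. The groups overlapped, but each mouse was higher than its own control. The blocked change was 1.51 ± 0.40 log2 units (edgeR, adjusted p = 0.016), against 1.58 ± 0.86 without the block (adjusted p = 0.259). Ces3a, a liver-enriched enzyme, went from 11.0, 2.91 and 1.74 TPM to 16.1, 4.70 and 2.63 TPM. Its mice differed by far more than its treatments, yet each was higher than its control by a like amount, 0.58, 0.69 and 0.56 log2 units. The blocked change of Ces3a was 0.62 ± 0.12 (edgeR, adjusted p = 0.00296), against 0.60 ± 1.01 without it (adjusted p = 0.743).

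Ces3b, the near copy of Ces3a, was at 1.96, 0.614 and 0.652 TPM in siCon and 2.58, 1.26 and 0.471 TPM in siHnf4a. In mouse 3 its TPM fell, but its estimated counts, the unit tested, rose from 11.3 to 15.5. Its blocked change of 0.71 ± 0.24 was just past the threshold (edgeR, adjusted p = 0.0485), and reads shared with Ces3a limit how far the 2 can be separated. With the block, 6 members were called, 1 lower and 5 higher, where 30% of all genes were called, 15.5% lower and 14.5% higher. The median over the 10 was 0.57 log2 units without the block, against 0.00 over all genes tested, and 8 of 10 were above 0. None of the 4 added calls stood without mouse 2: in the blocked fit without it Ces1d was at 1.25, Ces1f at 1.56, Ces3a at 0.59 and Ces3b at 0.46 log2 units (edgeR, adjusted p = 0.106, 0.121, 0.0611 and 0.373). Over all genes that fit called 733 lower and 676 higher, against 2346 and 2187 with all 3 mice. The call of Ces3b was also lost without mouse 1 or mouse 3 (edgeR, adjusted p = 0.0897 and 0.0789).

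**Figure D2:**
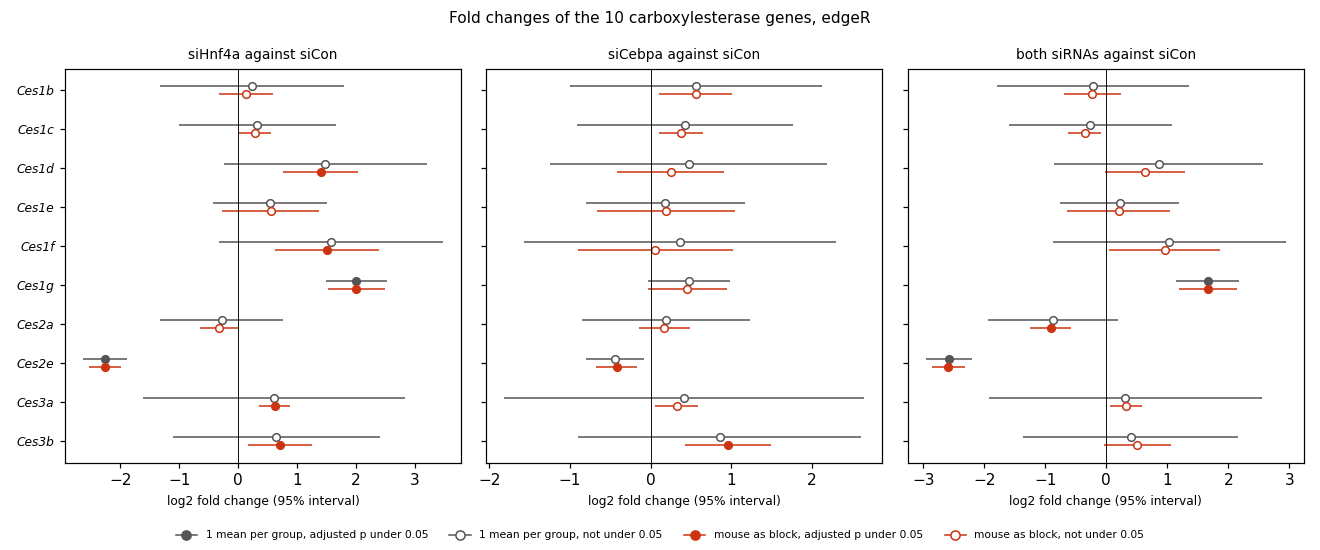
Log2 fold changes of the 10 genes (horizontal axis) against siCon with 95% intervals, in grey from the fit with 1 mean per group and in red from the fit with mouse as a block; filled points have an adjusted p under 0.05. In siHnf4a Ces2e lies at -2.26 and Ces1g at 2.01 in grey, and the red intervals of Ces3a, Ces1c and Ces2a are far narrower than the grey ones.

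Knockdown of Cebpa alone left the order of the 2 leading genes as it was, with Ces2e at 57.4 ± 1.33 TPM and Ces1c at 25.0 ± 15.4 TPM. Of the 10 members 0 were called, where 4.67% of all tested genes were, 1.72% lower and 2.94% higher. By DESeq2 the count was also 0, and 1 member, Ces2e, had an unadjusted p under 0.05 in edgeR. The medians were 0.42 log2 units over the members and 0.00 over all genes, with 9 of 10 members above 0.

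Ces2e was the exception in direction. It measured 57.8, 58.6 and 56.0 TPM in siCebpa, below all 3 siCon libraries at 73.6 to 97.3. In CPM the mice were lower by 0.19, 0.47 and 0.64 log2 units, and the fitted change was -0.44 ± 0.16 (interval -0.80 to -0.08; edgeR, adjusted p = 0.154). With mouse as a block it was -0.42 ± 0.11 and past the threshold (edgeR, adjusted p = 0.0299). The blocked call stood without mouse 1, at -0.55, but not without mouse 2 or mouse 3, at -0.41 and -0.34 (edgeR, adjusted p = 0.0186, 0.236 and 0.109). Over all genes the blocked fit called 121 lower and 146 higher without mouse 2, and 340 and 302 without mouse 3. With all 3 mice these were 1224 and 1318.

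Ces3b was the second gene to pass with the block, at 2.58, 1.72 and 1.02 TPM in siCebpa against 1.96, 0.614 and 0.652 in siCon. Each mouse was above its own control, and the blocked change was 0.96 ± 0.24 log2 units (edgeR, adjusted p = 0.0225), against 0.86 ± 0.80 without the block (adjusted p = 0.609). It did not pass without any 1 of the mice (edgeR, adjusted p = 0.0547 to 0.144). These 2 calls, 1 lower and 1 higher, compare with 16.8% of all genes called in the blocked fit, 8.11% lower and 8.73% higher.

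Ces1g measured 9.80, 5.11 and 5.13 TPM in siCebpa. Mouse 1 was above all 3 controls, while mice 2 and 3 were within the siCon range of 4.78 to 6.46. The change was 0.48 ± 0.23 log2 units (interval -0.04 to 0.99; edgeR, adjusted p = 0.281). Ces1d ran from 2.09 to 13.4 TPM and Ces1f from 0.258 to 2.20 TPM, both above and below their controls.

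With both siRNAs the 2 genes called under siHnf4a were called again, in the same directions. Ces2e was at 11.4, 13.1 and 18.0 TPM, 5.97-fold below siCon, and Ces1g at 16.3, 17.9 and 16.1 TPM, 3.16-fold above it. The changes were -2.58 ± 0.17 and 1.66 ± 0.23 log2 units (edgeR, adjusted p = 2.01e-05 and 0.00113). They were 2 of 10 members, where 14% of all genes were called, 7.13% lower and 6.9% higher. Without mouse 2 Ces1g was at 1.54 and no longer past the threshold (edgeR, adjusted p = 0.0948). Only 64 of all genes were then called lower and 60 higher, against 1076 and 1041 with all 3 mice.

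Ces2a joined them with the block. Its values were 4.42, 2.68 and 1.91 TPM against 7.24, 5.79 and 3.67 in siCon, and each mouse was lower, by 0.70, 0.95 and 1.07 log2 units of CPM. The blocked change was -0.91 ± 0.15 (edgeR, adjusted p = 0.00135), and without the block it was -0.87 ± 0.48 (adjusted p = 0.273). The blocked call stood without each mouse in turn (edgeR, adjusted p = 0.0092 to 0.0328). With it 3 of 10 members were called, where 29.5% of all genes were, 15.6% lower and 13.8% higher. The comparisons of each knockdown with siCon share the same 3 control libraries, so their values are given side by side and not as repeats of each other.

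Against siHnf4a alone, adding the Cebpa siRNA gave 0 called members in both fits, where 0.00663% of all genes were called, Cebpa itself. No member had an unadjusted p under 0.05 in edgeR, and DESeq2 called 0. Ces1g was at 16.1 to 17.9 TPM against 20.2 to 22.4, a change of -0.35 ± 0.22 log2 units (edgeR, adjusted p = 1). All 10 fitted changes were below 0, with a median of -0.40 against 0.01 over all genes.

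Against siCebpa alone, adding the Hnf4a siRNA lowered Ces2e by 2.14 ± 0.17 log2 units (edgeR, adjusted p = 5.11e-05) and raised Ces1g by 1.18 ± 0.23 (adjusted p = 0.00781). These 2 of 10 compare with 13% of all genes, 6.47% lower and 6.51% higher. The Ces1g call was lost when the 2 groups were fitted alone, at 1.19 (edgeR, adjusted p = 0.0578). It was also lost without mouse 2 and without mouse 3, at 0.99 and 1.04 (edgeR, adjusted p = 0.231 and 0.123), and in the blocked fit without mouse 2, at 1.01 (adjusted p = 0.0763). Leaving out mouse 2 also left Ces2e just short of the threshold, at -2.07 (edgeR, adjusted p = 0.0503). Over all genes 30 were then called lower and 15 higher, against 976 and 983 with all 3 mice.

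The blocked fit of the same comparison added 3 genes, all lower: Ces2a by 1.08 log2 units, Ces1b by 0.79 and Ces1c by 0.73. Ces1c, the plasma esterase, was at 31.1, 10.9 and 9.35 TPM in the double knockdown and at 42.8, 16.6 and 15.6 in siCebpa. The groups overlapped, with mouse 1 high in both, but each mouse was lower by 0.61 to 0.89 log2 units of CPM. The fit gave -0.73 ± 0.12 with the block and -0.69 ± 0.61 without it (edgeR, adjusted p = 0.00176 and 0.518). The 5 genes called with the block, 4 lower and 1 higher, compare with 27.3% of all genes, 14.3% lower and 13% higher. The blocked calls of Ces1c and Ces2a stood without each mouse in turn, and that of Ces1b did not stand without any of them (edgeR, adjusted p = 0.0663 to 0.0894).

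The 2 single knockdowns were also set against each other. Ces2e was 3.53-fold lower and Ces1g 2.89-fold higher in siHnf4a than in siCebpa, at -1.82 ± 0.17 and 1.53 ± 0.23 log2 units (edgeR, adjusted p = 0.000136 and 0.00181). They were 2 of 10 members, against 16.2% of all genes, 8.67% lower and 7.51% higher. Without mouse 2 neither passed, at -1.84 and 1.37 (edgeR, adjusted p = 0.0569 and 0.121), and without mouse 3 Ces1g narrowly missed, at 1.35 (adjusted p = 0.0515). Over all genes 38 were called lower and 21 higher without mouse 2, against 1309 and 1133 with all 3 mice. Leaving out mouse 1 instead gave 4 called members.

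With mouse as a block, 5 members were called between the single knockdowns, where 31.2% of all genes were, 16.3% lower and 14.9% higher. Ces1d was higher in siHnf4a by 1.16 ± 0.28 log2 units and Ces1f by 1.45 ± 0.39 (edgeR, adjusted p = 0.0106 and 0.0173). Both are hydrolases linked to stored triacylglycerol, and both were higher in each of the 3 mice. Ces2a was lower by 0.49 ± 0.15 (edgeR, adjusted p = 0.0265). Without mouse 2 none of these 3 blocked calls remained, at 1.10, 1.39 and -0.62 (edgeR, adjusted p = 0.132, 0.143 and 0.0788). Over all genes that fit called 659 lower and 773 higher, against 2466 and 2246 with all 3 mice. Without mouse 3 Ces1f also missed (edgeR, adjusted p = 0.0877), and Ces2a missed without each mouse in turn.

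Whether the 2 knockdowns add on the log scale was tested by the interaction, in which both single effects are subtracted from that of the double knockdown. Without the block 0 of 10 members were called, where 0.0861% of all genes were, 0.0331% lower and 0.053% higher, and DESeq2 also called 0. An unadjusted p under 0.05 was found for 1 member, Ces1g, at -0.82 ± 0.32 (edgeR, adjusted p = 0.428). The estimate was below 0 for 9 of 10 members, with a median of -0.87 against -0.01 over all genes, and above 0 for Ces2e, at 0.12 ± 0.23.

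With the block Ces1c passed alone, at -1.01 ± 0.17 log2 units (edgeR, adjusted p = 0.0151), where 3.82% of all genes were called, 1.83% lower and 1.99% higher. Its single knockdowns stood at 0.28 and 0.38 above siCon in that fit and its double knockdown 0.35 below it. Without the block the same estimate of -1.01 had an SE of 0.86 (edgeR, adjusted p = 0.761), and leaving any 1 mouse out of the blocked fit ended the call (edgeR, adjusted p = 0.0533 to 0.243). Without mouse 1, 2 and 3 in turn, that fit called 108, 4 and 13 of all genes lower and 152, 0 and 10 higher. With all 3 mice these were 276 and 300.

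Most of the 10 members differed between the 3 mice. In the model with mouse as a block, a test of any difference between mice called 7 of 10 members, where 26.8% of all genes were called, and in all 7 the estimate was highest for mouse 1. The 7 were Ces1b, Ces1c, Ces1d, Ces1f, Ces2a, Ces3a and Ces3b. Ces2e, Ces1g and Ces1e were not called (edgeR, adjusted p = 0.0889, 0.57 and 0.227). The 2 members called under siHnf4a without the block were among the 3 that did not differ by mouse past the threshold. This overlap is partly built in, since the fit without the block counts differences between mice in its SE. For Ces3a under siHnf4a the SE was 1.01 without the block and 0.12 with it. Ces1d, Ces1f, Ces3a and Ces3b differed by mouse and were called under siHnf4a with the block. The 4 Ces genes tested outside the set, Ces1h, Ces2c, Ces2f and Ces2g, were not called between mice (edgeR, adjusted p = 0.149, 0.311, 0.796 and 0.832).

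Ces3a, the liver-enriched enzyme, was at 11.0 to 16.1 TPM in the 4 libraries of mouse 1, at 2.91 to 4.70 in mouse 2 and at 1.74 to 2.63 in mouse 3. The mice did not overlap at all, and mouse 1 exceeded the mean of mice 2 and 3 by 4.61-fold to 6.12-fold within each group. In log2 units mouse 2 was 2.01 and mouse 3 was 2.75 below mouse 1 (edgeR, adjusted p = 2.71e-07).

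Ces1c ran from 31.1 to 42.8 TPM in mouse 1 and from 9.35 to 21.3 TPM in mice 2 and 3. It was 1.26 and 1.56 log2 units lower in mice 2 and 3 than in mouse 1 (edgeR, adjusted p = 1.41e-05). For Ces1b, Ces1d, Ces1f, Ces2a and Ces3b the corresponding differences lay between -0.83 and -2.18. Across the 12 libraries, which share 3 mice and 4 treatments, log2 CPM of Ces1c followed that of Ces1b at r = 0.96, of Ces3a at 0.91 and of Ces2a at 0.91. Ces1g and Ces2e ran opposite to each other at r = -0.91.

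**Figure D3:**
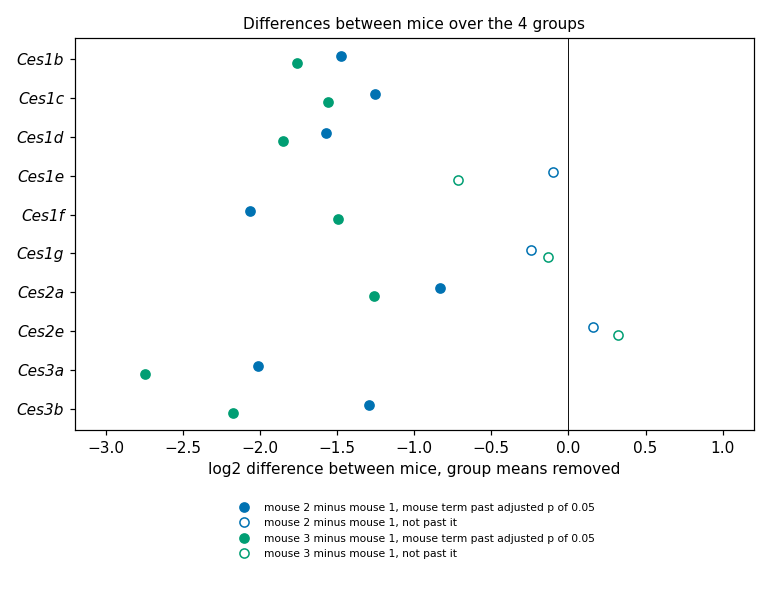
Log2 difference of mouse 2 (blue) and mouse 3 (green) from mouse 1 for each gene, after group means are removed; filled points mark genes whose mouse term has an adjusted p under 0.05. Ces3a lies at -2.01 and -2.75, while those of Ces2e and Ces1g lie between -0.24 and 0.32.

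Other transcripts differed by mouse too. Cd68, a macrophage gene, was at 338 TPM or more in mouse 1 and at 168 TPM or less in mice 2 and 3. Of 10 macrophage markers tested, 9 differed between mice; Cd68, Adgre1, Marco and Lyz2 were highest in mouse 1, and the other 5, Clec4f, Vsig4, C1qa, C1qb and C1qc, were highest in mouse 3. The 11 macrophage markers other than Cd68 summed to 3.32 to 25.7 TPM over all libraries (7.94 to 25.7 in controls, 3.32 to 11.9 under siHnf4a, 4.29 to 9.68 under siCebpa and 3.86 to 8.38 with both), with Timd4 at or near 0. Of 10 hepatocyte markers 7 differed between mice. Alb, Ttr, Apoa1, Tat and Cyp2e1 were highest in mouse 1, with Cyp2e1 lower by 1.64 and 2.18 log2 units in mice 2 and 3, and Cps1 and Pck1 were highest in mouse 2, Pck1 by 1.70 over mouse 1. Of 7 endothelial markers 6 differed, 5 of them highest in mouse 3, and of 8 stellate and fibroblast markers 7 differed, 4 of them highest in mouse 3. Of 4 cholangiocyte markers tested only 1 differed, Spp1, highest in mouse 3. The 1 adipocyte marker tested, Fabp4, did not. Over all genes 26.8% were called between mice. The part of these differences in the carboxylesterase values was not tested.

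Ces2e fell and Ces1g rose, and their shares of the summed TPM of the 10 members are described here without a test. The summed level of the 10 genes was 136 ± 7.80 TPM in controls, 99.4 ± 35.5 under siHnf4a, 115 ± 38.4 under siCebpa and 73.6 ± 28.1 with both siRNAs. Mouse 1 kept 140 TPM in siHnf4a, close to its 145 TPM in siCon, while mice 2 and 3 went from 130 and 133 TPM to 85.5 and 72.9. The share of Ces2e was 64.3% ± 11.9 of the sum in controls, 19.8% ± 8.35 under siHnf4a, 53.3% ± 14.7 under siCebpa and 21.9% ± 11.3 with both.

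The share of Ces1g went from 3.98% ± 0.765 in siCon to 23.5% ± 8.30 in siHnf4a and 24.8% ± 8.14 in the double knockdown, and was 5.74% ± 0.426 in siCebpa. By subfamily within the set, Ces2e and Ces2a together went from 92.5 ± 10.4 TPM in siCon to 22.2 ± 0.838 in siHnf4a. This sum leaves out Ces2g and Ces2c, which averaged 21.8 and 10.4 TPM in siCon and 16.3 and 12.5 in siHnf4a. The 6 Ces1 genes went from 37.3 ± 11.9 to 68.0 ± 28.0 TPM.

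**Figure D4:**
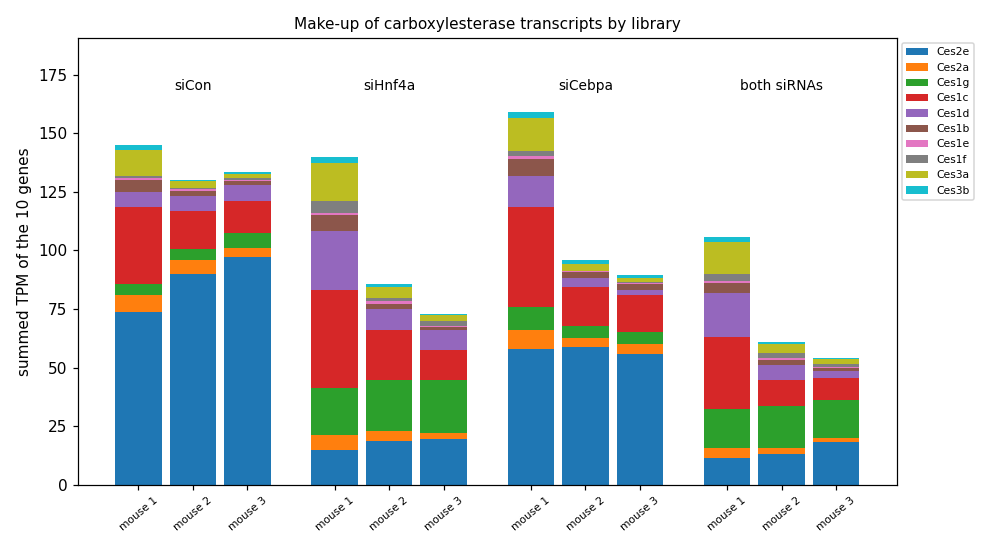
Stacked bars give the TPM of the 10 genes in each of the 12 libraries, with 1 bar per mouse in each group and the axis from 0. The Ces2e segment is 73.6 to 97.3 TPM in siCon and 14.8 to 19.6 in siHnf4a, and the total of mouse 1 is the highest of its group in all 4 groups.

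For Ces1d the 2 deposited units disagreed in the control cells. In TPM the siCon libraries were nearly equal at 6.48, 6.38 and 6.73, but in estimated counts they were 180, 65.0 and 93.0. A count was therefore worth 36.0 TPM per 1000 counts in mouse 1, 98.1 in mouse 2 and 72.4 in mouse 3, a 2.73-fold range over the 12 libraries. For Ces1b, Ces1c, Ces1g, Ces2e and Ces3a that ratio varied by at most 1.15-fold. It varied by 2.67-fold in Ces1f, 2.31-fold in Ces3b, 1.57-fold in Ces1e and 1.31-fold in Ces2a.

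The TPM of a gene is summed over its transcripts, each scaled by its own length. Ces1d has 1 coding transcript of 2004 bases and 3 retained-intron transcripts of 387, 391 and 574 bases. Which transcripts received the reads was not analysed here, and levels of Ces1d, Ces1f and Ces3b in TPM therefore carry this uncertainty. The tests were made on counts without correction for transcript length. Counts can also move with the mix of long and short transcripts, so the tests of these genes carry the uncertainty too. Ces1d also overlaps the gene model Gm45909 on its own strand, and Ces3a overlaps Gm45724 on the other strand, and the sources used here do not give the strand setting of the counting.

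Among the 10 Ces genes outside the set, 4 were tested (Ces1h, Ces2c, Ces2f and Ces2g) and 6 stayed at or below 0.237 TPM. Ces2f was called in no comparison. Ces2g, in the same cluster as Ces2e, was at 21.5, 21.9 and 22.1 TPM in siCon and 15.6, 16.2 and 17.0 in siHnf4a. Against siCon it fell by 0.41 ± 0.09 log2 units with the Hnf4a siRNA and by 0.38 ± 0.09 with both (edgeR, adjusted p = 0.0154 and 0.0194), a smaller change than that of Ces2e, with no test between the genes. The call of Ces2g was lost in 7 of 21 other settings under siHnf4a and in 9 of 21 with both siRNAs.

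Ces2c, known as an acylcarnitine and acylglycerol hydrolase, was the 1 tested Ces gene called under siCebpa without the block. It went from 10.6, 9.26 and 11.4 TPM to 29.5, 19.6 and 23.2 TPM, with no overlap, a change of 1.37 ± 0.20 log2 units (edgeR, adjusted p = 0.00585). In the double knockdown it was at 13.0 to 15.0 TPM, 0.92 ± 0.20 log2 units below siCebpa (edgeR, adjusted p = 0.0123). The siCebpa call was lost without mouse 2 or mouse 3, at 1.42 and 1.45 (edgeR, adjusted p = 0.281 and 0.103). In that comparison 0 of all genes were called lower and 0 higher without mouse 2. Without mouse 3 these were 4 and 7, against 260 and 444 with all 3 mice. The interaction of Ces2c was -1.22 ± 0.28 log2 units (edgeR, adjusted p = 0.178), past the threshold with the block and by DESeq2 (adjusted p = 0.0255 and 0.00855). Only 49.9% of the 31-base words of Ces2c occur in no other gene, most of the rest lying in the pseudogene Ces2d-ps. Ces1h, at 0 to 5 counts per siCon library, was called higher in siHnf4a and the double knockdown (edgeR, adjusted p = 0.0349 and 0.0147), but the siHnf4a call was lost in 11 of 18 other settings. Under siCebpa Ces1h passed only with the block, at 2.20 (edgeR, adjusted p = 0.0208).

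**Figure D5:**
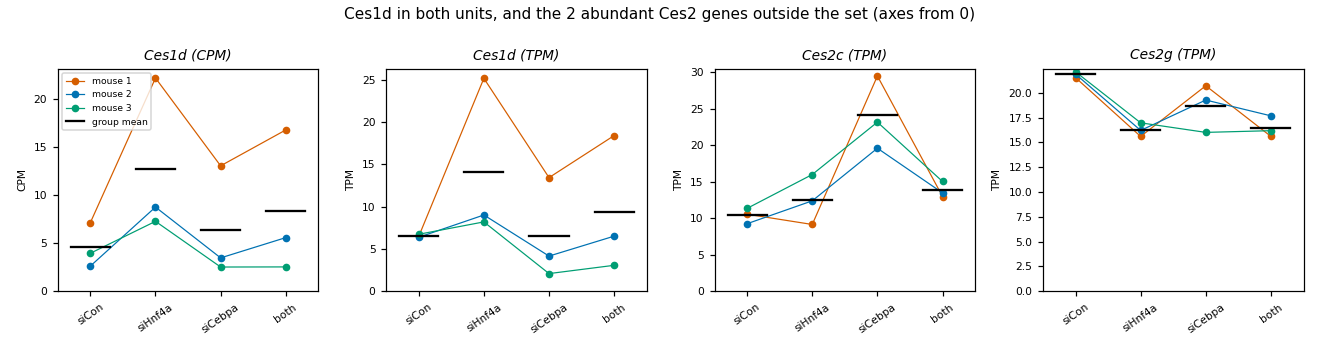
The left 2 panels plot Ces1d in CPM and in TPM, the right 2 panels Ces2c and Ces2g in TPM (axes from 0; lines join the libraries of 1 mouse, black bars are group means, n = 3). The siCon points of Ces1d are spread in CPM and lie close together in TPM, and Ces2c is at 19.6 to 29.5 TPM in siCebpa against 9.26 to 11.4 in siCon.

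Other hydrolases of lipid and drug esters were read from a list of 34 genes, of which 31 were tested. In siHnf4a 1 was lower and 3 were higher, where 14.5% of all genes were called, with a median of 0.11 log2 units against 0.00 over all genes. With mouse as a block 3 were lower and 7 higher, where 30% of all genes were called. Bche, the plasma butyrylcholinesterase, fell by 0.80, and Esd, an S-formylglutathione hydrolase, rose by 1.02 (edgeR, adjusted p = 0.0484 and 0.00115). In siCebpa 1 was lower (Afmid, kynurenine formamidase, at -0.60) and 2 were higher (Esd at 0.97 and Daglb at 0.37), and the block gave 1 lower and 4 higher. Of all genes 4.67% were called there, and 16.8% with the block. In the double knockdown 2 were lower and 2 higher, where 14% of all genes were called. With the block 6 were lower and 5 higher in the double knockdown, where 29.5% of all genes were called. Aadac, the arylacetamide deacetylase that shares substrates with carboxylesterases, was there at -2.66 ± 0.48 (edgeR, adjusted p = 0.0043). In siHnf4a it was at -1.40, and past the threshold only with the block, at -1.51 (edgeR, adjusted p = 0.058 and 0.00636).

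The lipid path in which Ces1d and Ces1g are placed was followed by 21 genes of triacylglycerol storage and very-low-density lipoprotein assembly, 20 of them tested. In siHnf4a 6 were lower and 1 was higher, where 7.29% of all genes were called lower and 7.24% higher, and the median was -0.24 log2 units against 0.00 over all genes. With the block 7 were lower and 3 higher, against 15.5% and 14.5% of all genes. Cideb fell by 2.73, Cidec by 2.51, Tm6sf2 by 2.10 and Apob, the structural protein of these particles, by 2.09. In siCebpa 0 were called without the block, where 4.67% of all genes were. With it 3 were lower, Apob by 0.60, Tm6sf2 by 0.51 and Hsd17b13 by 1.14 (edgeR, adjusted p = 0.0213, 0.0455 and 0.0314), where 8.11% of all genes were called lower. In the double knockdown 5 were lower and 1 was higher, where 7.13% of all genes were called lower and 6.9% higher. With the block 7 were lower and 1 was higher, against 15.6% and 13.8% of all genes. Gusb, the beta-glucuronidase that egasyn retains, was lower by 0.37 in siHnf4a (edgeR, adjusted p = 0.0321), while Ces1e itself was at 0.54 ± 0.44.

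Of 13 factors listed as acting on Ces genes, 2 were lower and 1 higher in siHnf4a (4 and 3 with the block), 2 lower in siCebpa (3 with the block) and 4 lower in the double knockdown (6 with the block). Shares of all genes called in these comparisons were 14.5%, 4.67% and 14%, and with the block 30%, 16.8% and 29.5%. Nfe2l2, the regulator of antioxidant genes, was higher by 0.50 in siHnf4a and lower by 0.49 in siCebpa (edgeR, adjusted p = 0.0191 and 0.0458). Nr1i2, the xenobiotic receptor PXR, was lower by 1.16 in the double knockdown (edgeR, adjusted p = 0.0116), and in siHnf4a it passed only with the block, at -0.62 (adjusted p = 0.0476). The genes within 250 kb of the members did not share one direction. Of 21 tested, 1 was lower and 2 were higher in siHnf4a, among them Nol3 at 1.34 and Fbxl8 at -0.61, where 14.5% of all genes were called. With the block 3 were lower and 2 higher there, where 30% of all genes were called. In siCebpa 0 were called, where 4.67% of all genes were. With the block 1 was lower and 2 were higher in siCebpa, where 16.8% of all genes were called.

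The genes closest to each member in log2 CPM over the 12 libraries, among genes of at least 10 CPM, were read as a description of libraries that share 3 mice and 4 treatments. Ces2e was most like Acat3, Smpd3 and Trf (r = 0.99, 0.98 and 0.98). Ces1g was most like Reep3, Fam13a and Aox1 (0.97, 0.96 and 0.96). The genes closest to the mouse-dependent members were others: Atraid, Bsg and Asrgl1 for Ces1c (0.98, 0.97 and 0.96) and Smpdl3a, Lcp1 and Mup22 for Ces3a (0.98, 0.96 and 0.96).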

How the data were processed

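RNA was measured in 12 libraries, from 3 mice under 4 siRNA treatments. The names Trim Galore 0.6.4, kallisto 0.4.6 and the build GRCm38.p6 come from the processing notes of the submitters. The sources used here do not give the annotation or strand setting. The authors deposited estimated counts per gene, not normalized, and TPM (transcripts scaled to their length and to the library total). Of 55385 gene identifiers, 55144 had a symbol in GENCODE M21, and the 241 without one held 0.00349% of counts. No column belonged to other samples.

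Estimated counts were rounded and tested with edgeR 4.0.16 (R 4.3.3): genes passing filterByExpr (15090, about 0.418 CPM or more), TMM scaling, 1 mean per group over all 12 libraries, 8 residual degrees of freedom, quasi-likelihood tests, and Benjamini-Hochberg adjustment over all 15090 genes at 0.05. Intervals are 95% intervals of the fitted change. DESeq2 1.42.0 and limma 3.58.1 served as alternatives. On simulated counts for siHnf4a against siCon (14701 genes), the test found 51 of the 96 genes altered by 1 log2 unit and 85 of the 96 altered by 2. Among its 143 calls, 7 were wrong. The simulated libraries were drawn independently, without shared differences between mice, and only the fit without the block was run on them. These numbers therefore do not cover the calls made with mouse as a block.

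Replicate numbers stand for mice, as the design text of the labels states. Same-numbered libraries deviated together from their group means (r from 0.156 to 0.684 over 18 pairs, with 12 of 12 libraries closest to their own mouse), so a fit blocked by mouse, which leaves 6 residual degrees of freedom, is printed where it changes the call of a Ces gene, and as counts for the gene lists. The members, gene lists and tests were chosen with earlier results of these data known. All members were named, and other Ces genes only where called or compared. Neighbouring genes within 250 kb and promoters (RefSeq, 7 of 10 members matched among 32851) were read by coordinates and symbol. Precision is limited by 3 mice per group and, for Ces1e, Ces1f and Ces3b, by low counts.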

Additional observations from a re-analysis of the deposited data

Results flagged for a closer look

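The effect of the 2 siRNAs together differed from the sum of their single effects for 1 member, Ces1c, when mouse was a block in the fit. The interaction was -1.012 log2 units, with an SE of 0.17 (edgeR, adjusted p = 0.0151), where 3.82% of all genes were called. In that fit Ces1c was 0.28 above siCon in siHnf4a, 0.38 above it in siCebpa and 0.35 below it in the double knockdown. Without the block the estimate was -1.01 ± 0.86 (edgeR, adjusted p = 0.761), and without any 1 mouse the blocked estimate ran from -1.07 to -0.93 and missed the threshold. Fewer of all genes were called in those fits, at 108, 4 and 13 lower without mouse 1, 2 and 3, against 276. Higher calls were 152, 0 and 10, against 300. Cebpa, the target itself, was higher in the double knockdown than in siCebpa by 1.65 ± 0.13 log2 units, and the part of this in the interaction was not tested.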

How the results depend on the processing

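Members called were counted again under each alternative, and no call changed direction. With mouse as a replicate block the count was 6 in place of 2 for siHnf4a against siCon, 2 in place of 0 for siCebpa against siCon, 3 in place of 2 for the double knockdown against siCon, 5 in place of 2 for the double knockdown against siCebpa and for siHnf4a against siCebpa, and 1 in place of 0 for the interaction. Leaving out 1 library at a time gave 2 to 2 for siHnf4a, 0 to 0 for siCebpa and 2 to 2 for the double knockdown against siCon, 0 to 0 against siHnf4a, 2 to 2 against siCebpa, 2 to 3 between the single knockdowns and 0 to 0 for the interaction. Fitting the compared groups alone gave 1 in place of 2 for the double knockdown against siCebpa.

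Leaving out a whole mouse was added after seeing the data. Calls over all genes moved with it, so a lost call is not particular to a member. For siHnf4a against siCon they were 1100 lower and 1093 higher with all mice and 1383 and 1231 without mouse 1. They were 41 and 34 without mouse 2, and 327 and 326 without mouse 3. Without mouse 1 the count was 4 for the double knockdown against siCebpa and 4 for siHnf4a against siCebpa. Without mouse 2 it was 1 for siHnf4a and 1 for the double knockdown against siCon, 0 for the double knockdown against siCebpa and 0 between the single knockdowns. Without mouse 3 it was 1 for each of the last 2 comparisons. With the replicate block, leaving out mouse 1 gave 5, 1 and 4 for siHnf4a, siCebpa and the double knockdown against siCon, 5 for the double knockdown against siCebpa and 4 between the single knockdowns. Leaving out mouse 3 in that fit gave 5 for siHnf4a and 4 for the double knockdown against siCon, and 4 against siCebpa. The double knockdown against siHnf4a gave 0 under every alternative run.

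Ces2e kept its call against siCon in 21 of 21 alternatives for siHnf4a and for the double knockdown, and Ces1g in 20 of 21 each. The cause of the other changes was not tested. Members below 1 TPM rest on few counts, and Ces3a and Ces3b, and Ces1b and Ces1c, share reads.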
